A study of Mus musculus with 2 samples.

Results

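A small group of T cells in this data set carried transcripts of several interferon-induced genes at once, and these interferon-responding T cells are described here. A T cell was taken as interferon-responding when at least 3 of 6 genes, Ifit1, Ifit3, Isg15, Usp18, Rsad2 and Rtp4, were each detected with at least 1 UMI (unique molecular identifier, 1 counted transcript molecule). The rule selected 177 of 13771 T cells, 1.29% (1.10 to 1.49; exact Clopper-Pearson interval at 95%). They were compared with the 10782 T cells of the same hashtags in which none of the 6 genes was detected. A further 2368 T cells held 1 of the 6 genes and 444 held 2. The 6 genes chose the cells, so their levels are given as a description only.

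The study sorted CD4+ T cells, 34000 from visceral adipose tissue (VAT) and 32000 from spleen, from mice of the strain C57BL/6 Foxp3.Cre-YFP kept on a reversed light cycle. The Treg-bmal1WT and Treg-bmal1KO mice keep or lack Bmal1, the product of Arntl and a core circadian transcription factor, in regulatory T cells (Tregs), and cells were taken at ZT0 and ZT12. The Foxp3 promoter drives the Cre, so that deletion concerns Foxp3-expressing cells, and both genotypes carry the transgene by the strain label. By the design text, genotypes, times and tissues were hashtagged separately before all cells were pooled into 1 droplet-based 3′ expression library and 1 hashtag library, although fewer hashtags were in use than there are such combinations. The sources used here do not tie hashtags 1 to 6, the ones in use, to a tissue, genotype or time, so each hashtag has its own values below, hashtags are not replicates and no test was run. Age and number of mice were not given in the sources used here.

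Type I interferons bind a receptor made of Ifnar1 and Ifnar2, and the kinases Jak1 and Tyk2 then phosphorylate STAT proteins, Stat2 among them. With Irf9 these form a complex that binds interferon-stimulated response elements in promoters and switches on antiviral genes. Interferon gamma acts through Ifngr1, Ifngr2, Jak1 and Jak2, and favours guanylate-binding proteins and antigen presentation genes. Many genes answer to both.

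The expression library held 22960 barcodes and 96923402 UMIs. Interferon-responding cells had a median of 3922 UMIs and 1418 genes, and comparison cells had 3087 UMIs and 1249 genes, while median mitochondrial shares were 2.02% and 2.20%. The share selected went up with depth, from 0.494% in the quartile of T cells with the fewest UMIs to 0.988%, 1.42% and 2.24% in the next ones. Levels below are CPM, the UMIs of a gene per 1000000 UMIs, over all cells of a class with exact Poisson intervals, and all intervals cover counting error only. Comparison cells were weighted so that each hashtag had the same share of UMIs as in the interferon-responding cells. This weighting was not used for sums of cell type markers, for levels within a cluster or for steps in the number of rule genes.

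Among the 6 genes, Isg15, which encodes a ubiquitin-like modifier, was detected in 166 of the 177 cells (93.8%), against 11.7% of all T cells. Ifit1, whose product binds foreign RNA caps, was detected in 142 (80.2%), against 3.44% of all T cells. The chaperone gene Rtp4 was detected in 135 (76.3%) and Usp18, which encodes the protease that removes Isg15 from proteins and dampens receptor signalling, in 85 (48.0%). Ifit3 was found in 64 cells (36.2%) and Rsad2, the gene of the antiviral enzyme viperin, in 42 (23.7%). The combination Ifit1, Isg15 and Rtp4 alone was the most frequent, with 42 of 177 cells. Pooled levels were 618 CPM (568 to 672) for Isg15, 340 (303 to 381) for Ifit1, 221 (191 to 254) for Rtp4, 144 (120 to 171) for Usp18, 122 (99.8 to 147) for Ifit3 and 77.7 (60.5 to 98.3) for Rsad2.

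The 6 genes differed in how evenly they were found across hashtags. Isg15 in hashtags 1 to 6 was at 633, 926, 606, 175, 607 and 668 CPM in the selected cells, with the lowest level in hashtag 4, which had 5 such cells. Ifit1 was at 248, 325, 359, 191, 395 and 389 CPM, and Rsad2 at 86.1, 260, 22.5, 15.9, 43.6 and 99.7 CPM. Rsad2 in hashtags 3 and 4 rested on 1 UMI each.

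Detection of 1 gene went with detection of the others among all T cells. Of 474 T cells with Ifit1, 39.2% also held Isg15, against 11.7% of all T cells. Of 155 T cells with Rsad2, 25.8% also held Ifit1, against 3.44%. Cells with more UMIs also had more of these genes, and the part of depth in the codetection was not tested. No cell class was known to lack these genes, so the part of free RNA in single detections was not tested.

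Cells just inside the threshold, with 3 genes, numbered 108 and held a median of 4 UMIs of the 6 genes. Cells just outside it, with 2 genes, held a median of 2. Cells with 4, 5 and 6 genes numbered 42, 20 and 7 and held medians of 7, 14.5 and 22 UMIs, up to 39 in 1 cell. Total depth changed little over these steps, with median UMIs of 3897.5, 3978.5, 3768, 3846 and 3879 in cells with 2, 3, 4, 5 and 6 genes.

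The RefSeq promoter table (build GRCm38.p6) held 4 of the 6 genes, Ifit1, Ifit3, Isg15 and Rsad2, while Usp18 and Rtp4 are named only. Each of the 4 held the interferon-stimulated response element pattern, which is GAAA, any 2 bases and GAAA again, searched on both strands of the window from 250 bases before to 50 bases after the gene start. The 250 bases before the start are shown for these 4 genes. Beside them stand Cxcl10 and Ddx60, 2 higher genes outside the rule that were picked from those that hold the pattern. The rule genes were taken as interferon-induced genes from the outset, so the pattern in them is no independent result. Other higher genes held no match, as given below. Sequences run 5′ to 3′ on the gene's strand and capitals mark the pattern.
Ifit1, chr19:34640639-34640888, plus strand: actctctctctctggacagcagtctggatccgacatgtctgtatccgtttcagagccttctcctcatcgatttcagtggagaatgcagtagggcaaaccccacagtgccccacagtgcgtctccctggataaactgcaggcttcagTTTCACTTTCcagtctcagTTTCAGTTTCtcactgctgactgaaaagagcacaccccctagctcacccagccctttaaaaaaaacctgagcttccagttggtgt
Ifit3, chr19:34583279-34583528, plus strand: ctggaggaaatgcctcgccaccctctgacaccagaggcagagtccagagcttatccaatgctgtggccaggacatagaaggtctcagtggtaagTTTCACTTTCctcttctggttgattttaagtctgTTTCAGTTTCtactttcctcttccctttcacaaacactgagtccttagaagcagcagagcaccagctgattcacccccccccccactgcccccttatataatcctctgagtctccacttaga
Isg15, chr4:156200819-156201068, minus strand: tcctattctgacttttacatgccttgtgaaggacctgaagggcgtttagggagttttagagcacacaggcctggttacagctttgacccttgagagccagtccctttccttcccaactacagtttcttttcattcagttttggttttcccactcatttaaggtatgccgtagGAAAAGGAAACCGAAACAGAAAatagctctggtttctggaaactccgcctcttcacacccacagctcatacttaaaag
Rsad2, chr12:26456453-26456702, minus strand: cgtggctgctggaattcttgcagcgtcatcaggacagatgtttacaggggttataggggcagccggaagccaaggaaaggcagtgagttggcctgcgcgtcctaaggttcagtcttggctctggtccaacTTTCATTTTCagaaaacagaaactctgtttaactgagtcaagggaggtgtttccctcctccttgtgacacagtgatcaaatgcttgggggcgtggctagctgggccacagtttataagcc
Cxcl10, chr5:92348890-92349139, minus strand: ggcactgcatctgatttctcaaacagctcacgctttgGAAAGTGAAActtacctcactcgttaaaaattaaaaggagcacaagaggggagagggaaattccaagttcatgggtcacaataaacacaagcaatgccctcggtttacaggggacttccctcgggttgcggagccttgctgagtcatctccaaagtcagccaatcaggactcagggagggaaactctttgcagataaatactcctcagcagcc
Ddx60, chr8:61927837-61928086, plus strand: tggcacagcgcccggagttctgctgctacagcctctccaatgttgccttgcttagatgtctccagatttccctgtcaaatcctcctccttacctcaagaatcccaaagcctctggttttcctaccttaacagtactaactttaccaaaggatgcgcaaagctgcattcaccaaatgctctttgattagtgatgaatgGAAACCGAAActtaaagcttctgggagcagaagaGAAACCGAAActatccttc
In Ifit1 the matches began 104 and 85 bases before the start, in Ifit3 156 and 122 bases before it, and in Rsad2 120 bases before it. Isg15 held 3 overlapping matches, beginning 78, 72 and 66 bases before the start. Over all 32851 promoters in the table, 3.44% held the pattern. The gamma-activated sequence pattern TTCNNNGAA, searched the same way and counted whether or not it overlapped the first pattern, was in 8.30% of all promoters and in 0 of these 4. A match is a description of the letters and not of binding.

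The share of interferon-responding cells differed among hashtags. It was 34 of 2585 T cells in hashtag 1 (1.32%, 0.913 to 1.83), 11 of 1431 in hashtag 2 (0.769%, 0.384 to 1.37) and 10 of 1647 in hashtag 3 (0.607%, 0.292 to 1.11). In hashtag 4 it was 5 of 1182 (0.423%, 0.137 to 0.984), in hashtag 5 it was 71 of 3584 (1.98%, 1.55 to 2.49) and in hashtag 6 it was 46 of 3342 (1.38%, 1.01 to 1.83). Hashtag 5 was the highest, and its interval overlapped those of hashtags 1 and 6 but not those of hashtags 2, 3 and 4. T cells of hashtags 5 and 6 were also deeper, with median UMIs of 3388 and 3515, against 2832 to 2898.5 in hashtags 1 to 4.

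When every T cell was thinned to 2000 UMIs, which left out 2061 shallower cells, 74 of 11710 cells still held at least 3 of the 6 genes (0.632%, 0.497 to 0.793). The thinning was a single random draw, and how far its counts vary between draws was not tested. The thinned shares in hashtags 1 to 6 were 0.875%, 0.533%, 0.155%, 0%, 0.906% and 0.614%. For 0 of 944 cells in hashtag 4, the limit of 3 counts is a share of 0.318% and the exact interval ends at 0.390%. After thinning, the interval of hashtag 5 (0.608 to 1.30) overlapped that of hashtag 2 (0.196 to 1.16) but still lay above those of hashtag 3 (0.0188 to 0.560) and hashtag 4. Because the hashtags carry no tissue, genotype or time, these differences cannot be told apart from any of the 3.

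**Figure D1:**
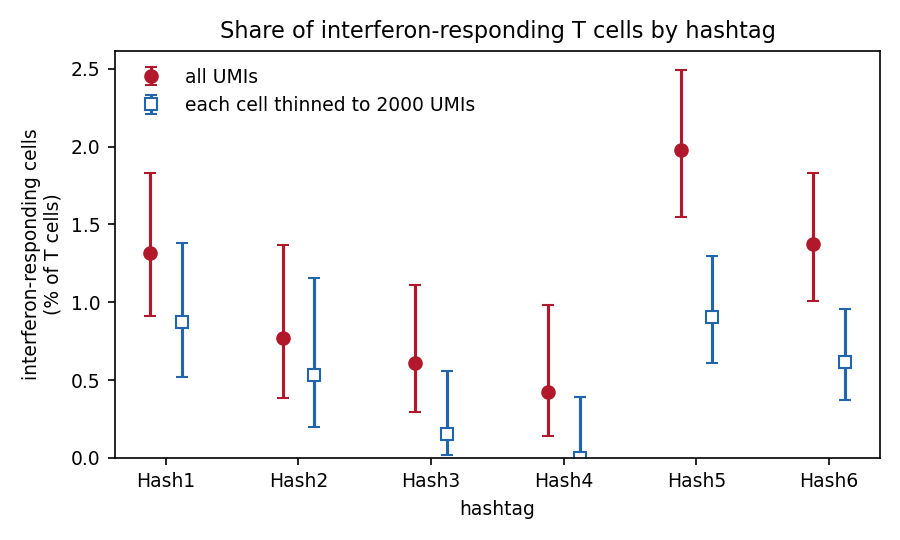
Share of interferon-responding cells among T cells (vertical axis, percent) in each of the 6 hashtags, with exact 95% intervals; filled circles use all UMIs and open squares use cells thinned to 2000 UMIs. The unthinned shares run from 0.423% in hashtag 4 to 1.98% in hashtag 5, and the thinned ones from 0% to 0.906%.

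Some of the 177 cells were not clean T cells. Cells were sorted as CD4+, and the T cell rule asks for 2 UMIs of Cd3e, Cd3d, Cd3g and Trac together, and after clustering without interferon genes 21 of the 177 lay in 3 clusters with raised markers of other cell types. A cluster without a name, led by Ccl21a, Fabp4, Gpihbp1 and Cldn5 and with all 5 endothelial markers raised, held 13 of them among 212 cells (6.13%, 3.31 to 10.3). A macrophage or monocyte-like cluster held 6 of 266 (2.26%, 0.832 to 4.84) and a stromal-like cluster 2 of 31 (6.45%, 0.791 to 21.4). In another such cluster, led by haemoglobin and immunoglobulin genes, 0 of 97 cells were selected, for which the limit of 3 counts is 3.09% and the exact interval ends at 3.73%. Summed endothelial markers (Gpihbp1, Cldn5 and Cdh5 among them, 5 of 5 detected) stood at 1306 CPM in the 177 cells (0 to 3168 over hashtags) and 94.7 CPM in the comparison cells (62.8 to 116). Stromal markers, also 5 of 5 detected, stood at 1378 CPM (0 to 5151) and 118 CPM (42.8 to 350).

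Read over all 177 cells, 253 of 5654 genes were at least 2-fold higher (4.47%) and 23 at least 2-fold lower (0.407%). Among the 5205 genes at 20 CPM or more in comparison cells these were 82 (1.58%) and 23 (0.442%). Vascular genes such as Cldn5 and Kdr were among the largest differences. A gene counts here when its mean over the 2 classes was 20 CPM or more, its ratio reached 2-fold and its direction was the same in hashtags 1, 5 and 6, which each had at least 20 selected cells. Because vascular and stromal transcripts moved with this result and their part in it was not tested, the comparison below uses only the 13 T cell clusters, a restriction chosen after seeing the data. It holds 156 interferon-responding cells of 13165 T cells (1.18%, 1.01 to 1.38) and 10410 comparison cells, with 677093 and 34668989 UMIs. In it the 5 endothelial markers were at 84.2 CPM (0 to 108 over hashtags) in interferon-responding and 75 CPM (50.2 to 95.6) in comparison cells. Stromal markers were at 26.6 and 32.1 CPM with Pdgfra at 0 in the former, and macrophage or monocyte markers at 53.2 and 59.4 CPM with Vcam1 at 0. B cell markers were at 411 and 483 CPM with Cd79a and Ms4a1 among the markers at 0. The dendritic cell list was higher, at 394 against 144 CPM. It holds the antiviral gene Bst2, at 371 against 89.9 CPM, also without weighting, while Flt3, Itgax, Xcr1, Clec9a, Cd209a and Siglech were at 0 in the interferon-responding cells. CD8 T cell markers were lower, at 11.8 against 23.9 CPM. Erythroid markers were at 142 against 164 CPM, but 18.6% against 9.56% of cells held at least 2 of their UMIs. The 4 T cell rule genes and Cd4 together were at 3511 and 3309 CPM, and Cd8a was at 0 in the 156 cells. Hashtags 1 to 6 gave 27, 10, 8, 4, 65 and 42 of the 156 cells.

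In these T cells, 81 of 5249 genes were at least 2-fold higher (1.54%) and 19 at least 2-fold lower (0.362%), with a median log2 ratio over all genes of 0.01. Of the 20 highest genes outside the rule, 9 were listed antiviral effectors. That list held 42 of the 5249 genes read, 29 of them at 20 CPM or more in comparison cells. The others were sensors, GTPases, Irf7, Slfn5, Cxcl10 and unlisted genes. Of the 20, Oasl2, Cmpk2, Mx1, Gm6545, Dhx58, Oas3, Cxcl10, Ifit1bl1, Ddx60 and Phf11c were under 20 CPM in comparison cells. These were read only through the selected cells, and Oasl2, Cmpk2, Mx1, Oas3 and Ifit1bl1 are among the 9 antiviral effectors. Among the 5075 genes at 20 CPM or more in the comparison cells, which leaves out genes that were read only through the selected cells, 53 were higher (1.04%) and 19 lower (0.374%). A prior of 0.5 UMI was added on each side of every ratio.

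The antiviral effector list, the longest of the lists, held the most higher genes, while by share of genes read the GTPases below stood above it. Of 58 listed genes 57 were in the table and 42 were read, of which 34 were at least 2-fold higher and 0 lower, with a median log2 ratio of 1.69. Of the 29 with at least 20 CPM in comparison cells, 25 were higher, with a median of 1.67. As a sum, the list stood at 10946, 12858, 11258, 6950, 8933 and 9114 CPM in the interferon-responding cells of hashtags 1 to 6. In the comparison cells it stood at 3170, 2799, 3027, 2883, 3273 and 2963 CPM, so the 2 classes did not overlap in any pair of hashtags.

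The most abundant member was Ifi27l2a, an interferon-induced gene of the mitochondrial and nuclear envelope protein family, at 3268 CPM (3134 to 3407) against 824 (813 to 835), a log2 ratio of 1.99. Its levels in hashtags 1 to 6 were 4154, 3481, 3055, 2517, 2916 and 3374 CPM in interferon-responding cells and between 701 and 872 CPM in comparison cells. Bst2, which encodes the virus-tethering protein tetherin, was at 298, 576, 412, 213, 344 and 424 CPM against 80.4 to 102, a log2 ratio of 2.08. Both genes were higher in all 6 hashtags.

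Some members were read only through the interferon-responding cells, since a gene scarce in comparison cells passes the 20 CPM mean only with a large ratio. Oasl2, an oligoadenylate synthetase-like gene, was at 38.4 CPM (25.1 to 56.3; 26 UMIs) against 2.74, a log2 ratio of 3.83. Mx1, which encodes an antiviral dynamin-like GTPase, was at 38.4 CPM (25.1 to 56.3) against 2.82 (3.78), and Cmpk2, a mitochondrial nucleotide kinase encoded beside Rsad2, at 54.6 (38.5 to 75.3) against 3.99 (3.79). Oas3, which makes the activator of RNase L, was at 56.1 CPM (39.7 to 77.0) against 6.53 (3.12). In hashtag 4, with 4 cells, no UMI of Oasl2 or Mx1 was seen, and Oasl2 was also at 0 in hashtag 2.

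Nucleases and other effectors were read at higher levels. Isg20, a 3′ exonuclease gene, was at 126, 377, 172, 35.5, 170 and 160 CPM in hashtags 1 to 6, against 42.1, 40.8, 27.2, 43.1, 24.9 and 21.6 in comparison cells, and the pooled log2 ratio was 2.56. Hashtag 4 was the exception, with 1 UMI and a level below its comparison cells. Rnf213, a large ubiquitin ligase gene, was at 136 CPM (110 to 167) against 23.1 (2.56). Xaf1, which encodes an antagonist of the apoptosis inhibitor XIAP, was at 136 (110 to 167) against 27.4 (2.32). Samhd1, which hydrolyses deoxynucleotides, was at 577 CPM (522 to 638) against 269 (1.11). The cytidine deaminase gene Apobec3 differed little, with 207 CPM (174 to 244) against 181 (0.20).

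Several higher genes belong to families of near-identical genes, in which the counting could split or drop reads. This holds for Ifi206 (222 against 46.7 CPM, log2 ratio 2.25), Phf11c (2.19), Ifit1bl1 (2.32), Trim30a (2.02) and the Slfn and Gbp genes below. Ifit3b, a near copy of the rule gene Ifit3, was at 38.4 CPM against 0.827 and lay under the 20 CPM mean.

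**Figure D2:**
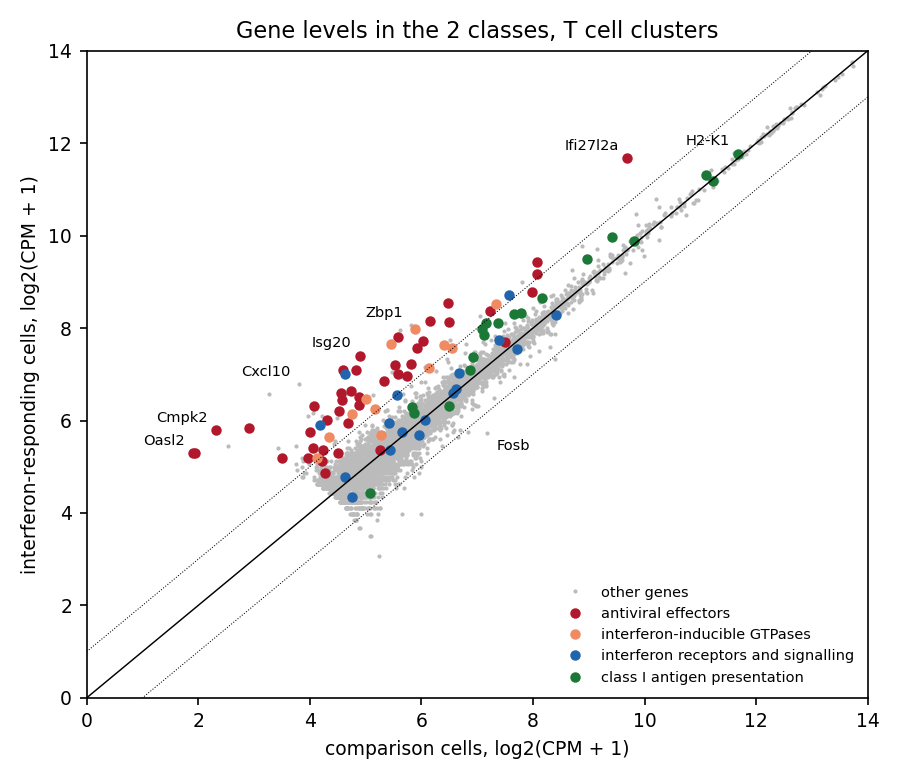
Level of each gene read in comparison cells (horizontal axis) and interferon-responding cells (vertical axis), T cell clusters, as log2(CPM + 1); colours mark 4 gene lists, the solid line is equality and the dotted lines are 2-fold. Antiviral effectors and interferon-inducible GTPases lie mostly above the upper dotted line, such as Ifi27l2a at 3268 against 824 CPM, while class I genes lie within the 2-fold lines.

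Among nucleic acid sensors, 16 were listed, 13 were in the table and 8 were read, of which 3 were at least 2-fold higher and 0 lower. Zbp1, which senses Z-form nucleic acids and can start cell death, was at 235, 288, 343, 142, 266 and 286 CPM in hashtags 1 to 6, against 36.6 to 61.6 CPM in comparison cells. It was higher in all 6 hashtags, with a pooled log2 ratio of 2.27. Dhx58, a regulator of RIG-I-like receptors, was at 42.8 CPM (28.7 to 61.5) against 4.77 (3.19) and Ddx60, a helicase gene, at 67.9 (49.7 to 90.6) against 14.6 (2.23). Ifih1, which encodes the RNA sensor MDA5, had a pooled log2 ratio of 2.10 but was lower than its comparison cells in hashtag 1, at 9.03 against 11.2 CPM. Ddx58, which encodes the RNA sensor RIG-I, was at 59.1 CPM (42.2 to 80.4) against 33.7 (0.83). Of the 4 sensors at 20 CPM or more in comparison cells, 1 was higher.

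Of 20 listed receptor and signalling genes, 17 were read, 4 were at least 2-fold higher and 0 lower, with the transcription factor genes Irf7, Stat2 and Irf9 among the 4. Irf7, which amplifies interferon gene transcription, was at 163, 244, 240, 35.5, 113 and 93.6 CPM in hashtags 1 to 6 against 22.2 to 26.7 in comparison cells, with a pooled log2 ratio of 2.42. Stat2 was at 59.1 CPM (42.2 to 80.4) against 17.2 (1.8) and was read only through the selected cells. Of the 16 genes at 20 CPM or more in comparison cells, 3 were higher. Irf9 was at 93.0 CPM (71.5 to 119) against 46.3, with a pooled log2 ratio of 1.02 and a median over hashtags 1, 5 and 6 of 0.83, under 2-fold.

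The receptor and kinase genes were within 2-fold. Ifnar1 was at 50.2 CPM (34.8 to 70.2) against 61.5, Ifnar2 at 39.9 (26.3 to 58.0) against 42.1 and Ifngr1 at 186 (155 to 222) against 210. Jak1 was at 309 CPM (268 to 353) against 339 and Tyk2 at 19.2 (10.2 to 32.8) against 26.1. The log2 ratios of these 5 ran from -0.39 for Tyk2 to -0.05 for Ifnar2, and that of Jak2 was 0.14. Stat3, Stat4, Stat5a, Irf1, Irf2 and Irf3 lay between -0.04 and 0.37, and Stat5b at 0.55.

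Feedback inhibitors other than the rule genes numbered 9, all read, of which 0 reached 2-fold in either direction. The largest ratio was that of Usp25, a deubiquitinase gene, at 112 CPM (88.4 to 140) against 62.4 (0.86). Socs1, a suppressor of JAK kinases, was at 105 CPM (81.9 to 132) against 75.5 (0.48), higher in hashtags 5 and 6 and lower in hashtag 1. Socs3 was at 44.3 CPM (29.9 to 63.3) against 51.8 (-0.20).

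Interferon-inducible GTPases, which act on membranes of intracellular pathogens, numbered 18 listed, 12 read, 11 at least 2-fold higher and 0 lower, with a median log2 ratio of 1.21. Of the 10 at 20 CPM or more in comparison cells, 9 were higher. Iigp1 was at 190, 200, 172, 70.9, 319 and 242 CPM in hashtags 1 to 6, against 28.4, 20.4, 27.2, 16.6, 81.2 and 60.9 in comparison cells, with a pooled log2 ratio of 2.12. It was higher in every hashtag, and hashtags 5 and 6 stood above the others in both classes. Gm12250 was at 201 CPM (169 to 238) against 42.9 (2.23), Irgm1 at 87.1 (66.3 to 112) against 31.2 (1.49) and Gbp9 at 69.4 (51.0 to 92.3) against 26.0 (1.43). Summed over the list, hashtag 4, with 4 interferon-responding cells, was at 638 CPM against 501. The other hashtags were at 1618 to 2017 CPM against 528 to 814, so hashtag 4 stood well apart only in the interferon-responding cells.

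Class I antigen presentation genes differed by less. All 19 were read, 0 reached 2-fold in either direction, and the median log2 ratio was 0.47, with 13 of 19 above 0 in hashtags 1, 5 and 6 alike, against 689 of all 5249 genes. H2-T22, a non-classical class I gene, was at 273 CPM (235 to 316) against 142 (0.95), and the peptide loading and transport genes Tapbp and Tap1 at 251 against 134 (0.91) and 230 against 138 (0.75). The immunoproteasome gene Psmb10 was at 276 CPM (238 to 319) against 165 (0.75). The classical heavy chain genes H2-K1 and H2-D1 were at 3491 against 3265 CPM (0.10) and 2334 against 2394 CPM (-0.04), and B2m at 2554 against 2192 (0.22).

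In the Schlafen and Ly6 families, 11 were listed, 8 were read and 3 were at least 2-fold higher. Slfn5 was at 190, 466, 103, 177, 237 and 275 CPM in hashtags 1 to 6 against 38.2 to 49.9 in comparison cells (pooled log2 ratio 2.36), higher in all 6. Slfn8 (1.60) and Slfn1 (1.22) were the other two. Ly6a, which encodes the surface antigen Sca-1, was at 870 CPM (801 to 943) against 471 (0.89). Of 7 chemokine ligand genes 2 were read, of which 1 was at 20 CPM or more in comparison cells and was not called. The other was read only through the selected cells. Cxcl10, which attracts Cxcr3-bearing cells, was at 109 CPM against 13 (3.08), but 30 of its 74 UMIs came from 1 cell, and its level without that cell was 65.2 CPM. Of the 74 UMIs 44 were in hashtag 1, and Cxcl10 was below its comparison cells in hashtag 2 (22.2 against 25.7 CPM) and hashtag 3 (0 against 15.1 CPM). It was found in 14 of the 156 cells. Of 9 interferon genes only Ifng was read, at 36.9 CPM (23.9 to 54.5) against 39.1 (-0.06).

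Single genes of other lists were also higher. Daxx, a histone chaperone and death-domain adaptor gene, was at 93.0 CPM (71.5 to 119) against 34.0 (1.46). Nampt, the rate-limiting gene of NAD salvage, was at 35.4 CPM (22.7 to 52.7) against 13.6 (1.41), and Cd274, which encodes the inhibitory ligand PD-L1, at 32.5 (20.4 to 49.2) against 14.9 (1.16). Both were under 20 CPM in comparison cells and were read only through the selected cells. Lgals3bp, a secreted galectin ligand gene outside the lists, was at 134 CPM (108 to 165) against 27.7 (2.29).

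Of the 81 higher genes 66 matched the RefSeq promoter table, and 30 of them held the response element pattern shown above (45.5%), against 187 of 4203 matched genes among all read (4.45%). Restricted to genes at 20 CPM or more in comparison cells, it was in 20 of 44 matched higher genes (45.5%), against 172 of 4071 (4.23%). The pattern was in 7 of 8 matched GTPase genes and 5 of 16 class I genes. It was in 0 of the 16 matched genes among the 19 lower ones. The gamma-activated sequence pattern was in 12 of the 66 (18.2%), against 8.40% of all read. Irf7, Oasl2, Cmpk2, Isg20, Lgals3bp, Phf11c, Rnf213 and Xaf1 were among the higher genes with no match in this window.

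**Figure D3:**
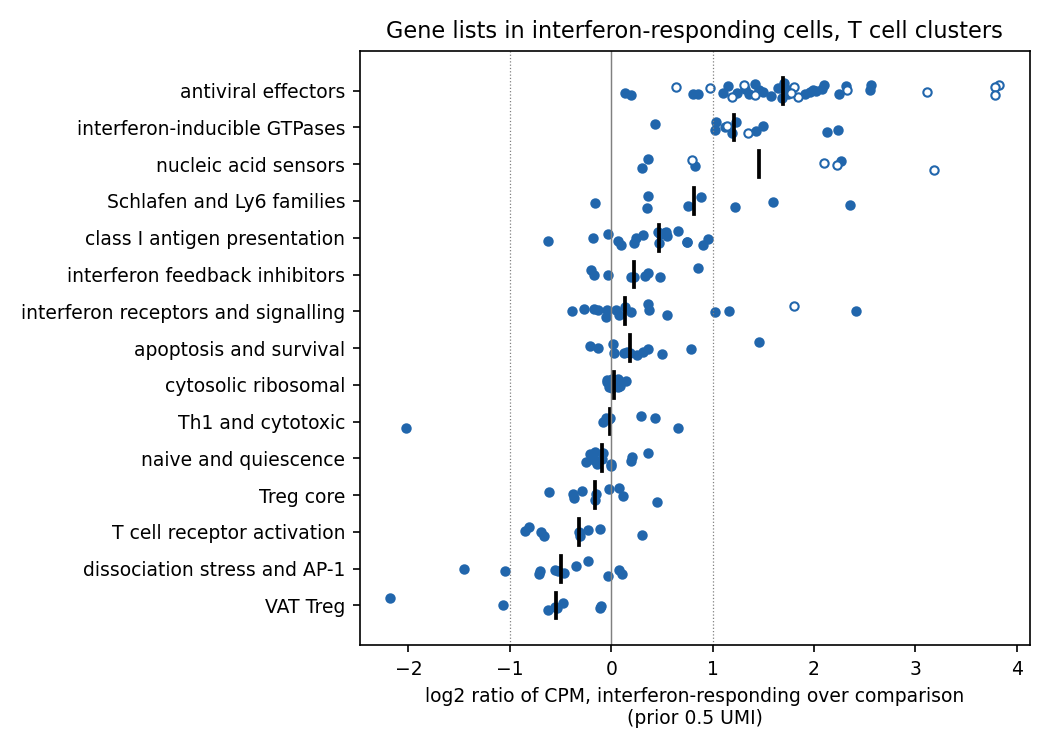
Log2 ratio of CPM (horizontal axis) for each gene read in 15 lists, T cell clusters; filled points have at least 20 CPM in comparison cells, open points have less, and vertical bars are medians over all points of a list. Medians are 1.69 for antiviral effectors and 1.21 for GTPases, 0.47 for class I genes and 0.03 for ribosomal genes, and dotted lines mark 2-fold.

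Summed antiviral effectors and GTPases were higher at each step in the number of rule genes detected, in sums over all hashtags that were not weighted by hashtag. Cells with 0, 1, 2, 3 and 4 to 6 of the 6 genes had summed antiviral effectors at 3056, 3537, 4763, 8078 and 12083 CPM, over 10410, 2212, 387, 95 and 61 cells. The order held in hashtags 1, 2, 3, 5 and 6, while in hashtag 4, with 2 cells in each of the last steps, cells with 3 genes were at 7270 and those with more at 6753 CPM. GTPases went from 663 over 831, 1160 and 1471 to 2372 CPM. Irf7 went from 24.0 over 33.1, 54.7 and 107 to 160 CPM, and Zbp1 from 51.3 over 67.3, 99.8 and 206 to 364 CPM. Not every gene followed the steps. Oasl2 was at 40.3 CPM in cells with 3 genes and 35.2 in cells with 4 to 6, and class I genes stood at 12149, 11883, 12164, 13287 and 14236 CPM. For antiviral effectors and GTPases, cells with 1 or 2 genes lay between the 2 classes.

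The single cells overlapped across these steps. Antiviral effector UMIs per 10000 UMIs of a cell had a median of 28.4 in cells with none of the genes (0 to 166), 82.6 in cells with 3 (10.9 to 296) and 116 in cells with 4 to 6 (33.3 to 397). The middle of the distribution was apart, with quartiles of 20.3 and 38.8 in the first group and 89.6 and 157 in the last.

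**Figure D4:**
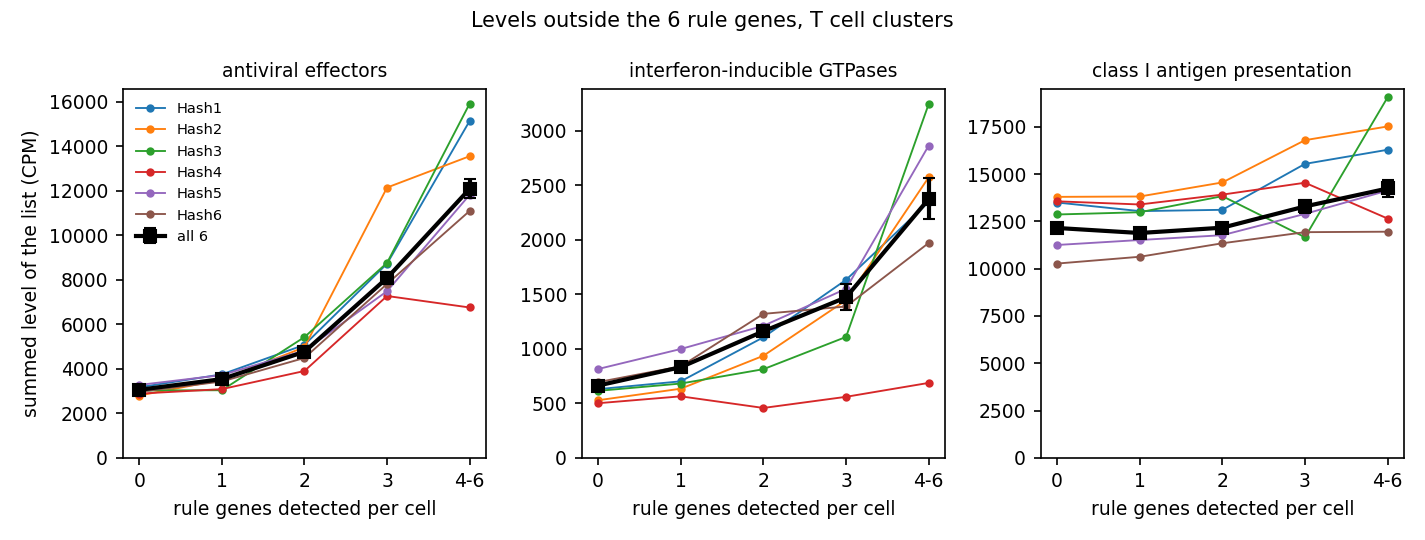
Summed CPM of 3 gene lists outside the rule (vertical axes) by the number of rule genes detected per cell (horizontal axes), T cell clusters; thin lines are the 6 hashtags and the thick line is all cells with exact Poisson intervals. Antiviral effectors run from 3056 to 12083 CPM and GTPases from 663 to 2372 CPM, while class I genes run from 12149 to 14236 CPM.

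Interferon-responding cells were found in most T cell states. Of the 156, 47 lay in a naive CD4-like cluster (1.33% of its 3542 cells, 0.977 to 1.76) led by Dapl1 and Igfbp4, and 39 in a cluster without a name led by Gpm6b, Slamf6 and Tbc1d4 (1.5% of 2596, 1.07 to 2.05). A Treg-like cluster, with Foxp3, Il2ra and Ikzf2 among its 6 raised markers, held 26 (2.69% of 966, 1.77 to 3.92). A Th1-like cluster held 16 (1.01% of 1591, 0.576 to 1.63) and a cytotoxic-like one led by Gzmk and Eomes 10 (1.76% of 569, 0.846 to 3.21). A cluster with all 10 markers of adipose tissue Tregs raised, called VAT Treg-like by markers alone and led by Areg beside the stress genes Atf3 and Fos, held 6 (0.347% of 1730, 0.127 to 0.753). The other 7 clusters held 4 or fewer each.

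The intervals of the Treg-like and VAT Treg-like clusters did not overlap, at median depths of 3175.5 and 3162 UMIs. The hashtags differed as well, since 513 and 353 of the 966 Treg-like cells carried hashtags 5 and 6 and the VAT Treg-like cells carried hashtags 1 to 4 only, so cluster and hashtag cannot be told apart here. Within hashtag 1, the counts were 1 of 57 and 2 of 510 cells. The cluster without a name was present in all hashtags and held 9 of 540, 2 of 194, 0 of 388, 2 of 190, 16 of 722 and 10 of 562 cells in hashtags 1 to 6. Hashtag 3, and not hashtag 4 as in the whole set, had the lowest share in this cluster. These counts are small, and the whole-set intervals of hashtags 3 and 4 overlapped, so no order between them is drawn. For 0 of 388 the limit of 3 counts is 0.773% and the exact interval ends at 0.946%. Thinning to 2000 UMIs was drawn anew for the clusters, again as a single draw. The shares were then 0.608% (0.377 to 0.928) in naive CD4-like, 0.903% in the unnamed and 0.825% (0.333 to 1.69) in Treg-like cells. They were 0.522% in Th1-like, 1.37% in cytotoxic-like and 0.136% (0.0164 to 0.489) in VAT Treg-like cells.

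**Figure D5:**
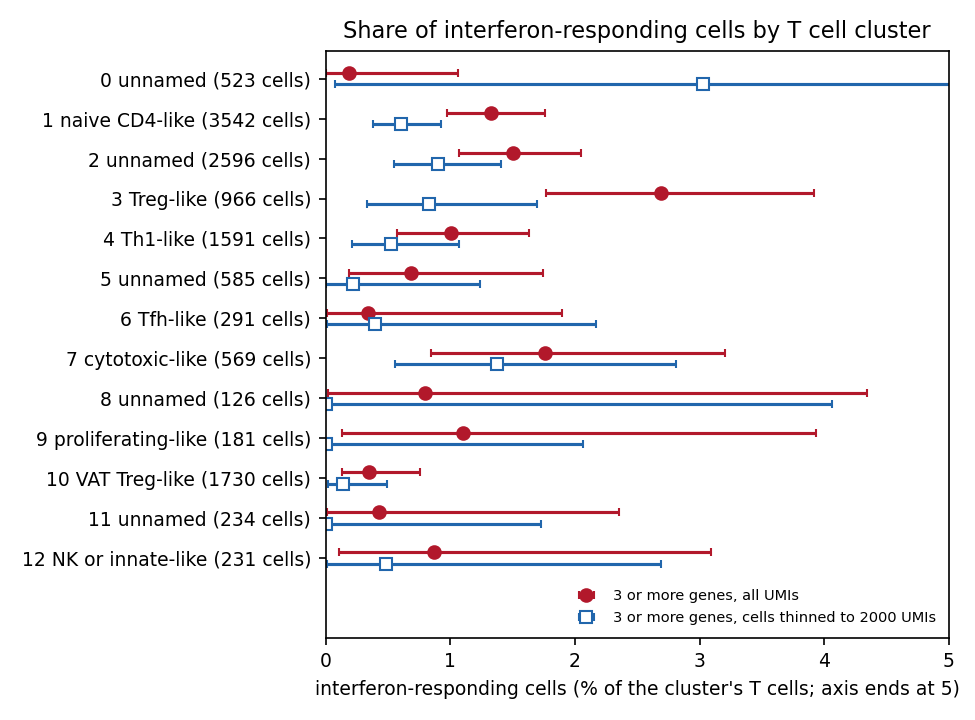
Share of interferon-responding cells (horizontal axis, percent) in each of the 13 T cell clusters with exact 95% intervals; filled circles use all UMIs and open squares use cells thinned to 2000 UMIs. The Treg-like cluster is at 2.69% and the VAT Treg-like cluster at 0.347%; the thinned value of cluster 0 rests on 1 of 33 cells and its interval runs past the axis.

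The response was read in each of the 3 clusters with at least 20 such cells, against comparison cells of the same cluster that were not weighted by hashtag. Summed antiviral effectors were at 7715 CPM (7337 to 8108) against 2623 in naive CD4-like cells, 11872 (11330 to 12432) against 3650 in the unnamed cluster and 8595 (8056 to 9161) against 3691 in Treg-like cells. Their log2 ratios were 1.56, 1.70 and 1.22. GTPases were at 1365, 1965 and 2260 CPM against 687, 688 and 1057. Isg20 was at 158, 145 and 154 CPM against 15.9, 26.2 and 48.8, so that similar levels in the responding cells stood against different levels in their comparison cells.

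Of 14 Treg core genes 10 were read and 0 reached 2-fold, with a median log2 ratio of -0.16. The Treg lineage factor gene Foxp3 stood at 10.3 CPM (4.16 to 21.3; 7 UMIs) against 15.5, a log2 ratio of -0.49 that took either sign among hashtags 1, 5 and 6. Within the Treg-like cluster it was at 36.3 CPM (9.89 to 93.0; 4 UMIs) against 47.9, while the naive CD4-like cluster, not a Foxp3-expressing state, had 0 UMIs (up to 18.2 CPM) against 1.60 CPM. Arntl, the gene deleted in Tregs of the knockout mice, was at 14.8 CPM (7.08 to 27.2; 10 UMIs) against 17.1 (-0.15), and its hashtags cannot be tied to genotype. All 12 naive and quiescence genes were within 2-fold (median -0.09) and so were the 16 ribosomal genes (0.03). Of 8 Th1 and cytotoxic genes read of 13, 0 were called (median -0.01), although Ccl4, with 10 UMIs, had a log2 ratio of -2.02 without the same direction in hashtags 1, 5 and 6.

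The remaining lists were short of called genes. Of T cell receptor activation genes 9 of 14 were read (median -0.31), of proliferation genes 7 of 10 (0.21), of core clock genes 4 of 18 (0.13) and of Tfh genes 2 of 8 (-0.10), with 0 called in each. Inhibitory receptors had 4 of 10 read and 1 called, Cd274 (median -0.35), and apoptosis and survival genes 13 of 19 read and 1 called, Daxx (median 0.19). Of the 3 inhibitory receptors at 20 CPM or more in comparison cells 0 were called, with a median of -0.53. Of NAD and metabolite enzymes 4 of 10 were read and 2 called, Nampt and Cmpk2 (median 0.59). Of the 2 such enzymes at 20 CPM or more in comparison cells 0 were called, with a median of -0.39. Cd274, Nampt and Cmpk2 were read only through the selected cells.

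The 19 lower genes were mostly scarce. By size of the ratio they were led by AA467197 (-1.66), Gm26532 (-1.58), Afg3l1 (-1.57), Fosb (-1.45), Zfp330 (-1.36), Trpv2 (-1.23), Smg9 (-1.20), Kmt5b (-1.14), Atf7 (-1.10) and Eea1 (-1.09). As the median over hashtags 1, 5 and 6, 8 of these 10 were under 2-fold, from -0.73 for Trpv2 to -0.98 for Atf7, while Afg3l1 was at -1.81 and Smg9 at -1.84. Of the 10 UMIs of AA467197, 7 came from 1 cell. Fosb, an AP-1 transcription factor gene induced by stimulation and by tissue dissociation, was at 117, 310, 68.6, 35.5, 10.6 and 11 CPM in hashtags 1 to 6 against 326, 569, 247, 585, 24.2 and 24.9 in comparison cells. It was lower in every hashtag, and hashtags 5 and 6 were far below the others in both classes. Klrg1, an inhibitory receptor gene of adipose Tregs, was at 53.2 CPM (37.2 to 73.6) against 113 (-1.06), and at -0.81 when comparison cells were also weighted by cluster. The VAT Treg list had 8 of 12 genes read with a median of -0.54, or -0.36 with that weighting, and the dissociation stress and AP-1 list 12 of 12 with -0.50, or -0.13 as the median over hashtags 1, 5 and 6. The number of lower genes was 2 with a prior of 5 UMIs, and 29, 65 and 37 without hashtags 1, 5 and 6. Each time such a hashtag was left out, the direction was asked in fewer hashtags, so those counts are not like for like.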

How the data were processed

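The authors deposited raw UMI counts per gene and barcode from 10x 3′ v3.1 libraries, and hashtag counts from a second library. Per the file headers the matrix came from cellranger 4.0.0, while Cell Ranger 6.0 and Seurat 3, with build mm10, stand in the submitters' processing notes. Cells had at least 500 genes, under 10% mitochondrial UMIs, a top hashtag with at least 80% of the counts of hashtags 1 to 6 and at least 10 counts, and at least 2 UMIs of Cd3e, Cd3d, Cd3g and Trac. The hashtag rule removes doublets across hashtags only when no hashtag reaches 80% of the counts, so unequally labelled ones can pass. Doublets within a hashtag are not seen, and no doublet caller was run.

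Counts were summed per class. A gene was read at a mean of 20 CPM, ratios had a prior of 0.5 UMI, and a call needed 2-fold and the same direction in hashtags with at least 20 selected cells, judged on levels without the prior, a choice made after seeing the data. With 1 pooled library no test was run. Clusters (scanpy 1.11.5, Leiden, 2000 variable genes, 30 components, 15 neighbours, resolution 0.8) left out interferon lists and T cell receptor variable genes. Sums and intervals used pandas 2.3.3, scipy 1.17.1 and numpy 2.4.6 under Python 3.11.15, plots matplotlib 3.10.9, and the summing was tested on simulated data.

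Named genes were the 20 highest and 10 lowest called, up to 4 per list by size of the ratio, all signalling and feedback genes read, Foxp3, Arntl and Ifng. Some of these are not reported here. Others named in the text were chosen after their values were seen. Members, lists and rules were chosen with earlier results of these data known. Alternatives changed the gene threshold, cell, hashtag and T cell filters, depth, weighting, scaling, level filter and prior. The restriction to T cell clusters, leaving out cells above 10000 UMIs and the median over hashtags were added after seeing the data.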

Additional observations from a re-analysis of the deposited data

Results flagged for a closer look

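Cells outside the analysed set also held the 6 genes. Of 611 cells with 1 hashtag that failed the T cell rule, 14 had at least 3 of the genes (2.29%, 1.26 to 3.81), beside 1.29% of T cells, and the difference was not tested. Their group of 611 had a median of 1201 UMIs, and all 14 had at least 2 UMIs of other cell types' markers. The same held for 76.3% of the 177 interferon-responding T cells and 69.1% of the comparison cells. Of 6854 barcodes that failed the hashtag rule, 194 had at least 3 of the genes (2.83%, 2.45 to 3.25). These barcodes had a median of 5840.5 UMIs, and 170 of the 194 had at least 2 UMIs of other cell types' markers. Barcodes that fail the hashtag rule can hold more than 1 cell, and the part of that in these shares was not tested.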

How the results depend on the processing

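Over all 177 cells, a threshold of 2 of 6 genes gave 621 cells (4.51%), 114 genes higher, 3 lower, and medians of 0.93 for antiviral effectors, 0.63 for sensors and 0.73 for GTPases. With 4 of 6 there were 69 cells (0.501%), 94 lower genes, and medians of 2.15 and 1.68 for antiviral effectors and GTPases. A cell filter of 1000 genes and 5% mitochondrial UMIs gave a share of 1.5%. A top hashtag at 95% and 50 counts gave 86 cells, 155 higher, 62 lower and an antiviral median of 1.73. Asking for 4 UMIs of T cell genes gave 134 higher and 1.74. Without cells holding 2 UMIs of other types there were 42 cells (1.02%), 421 higher, 190 lower and 1.87. Weighting by UMI decile gave an antiviral median of 1.73. A floor of 50 CPM gave 98 higher, 11 lower and 1.53, and a floor of 1 UMI gave 556, 697 and 1.83. A prior of 5 UMIs gave 14 lower and 1.72, leaving out cells above 10000 UMIs gave 138 higher and 1.87, and thinning gave 74 cells (0.632%). Leaving out each hashtag in turn gave 106 to 172 cells, shares of 1.04 to 1.38%, 187 to 381 higher, 24 to 69 lower and antiviral medians of 1.59 to 1.75. A call asked for the same direction only in hashtags with at least 20 selected cells. Settings with fewer cells could drop hashtags from that part and rested on fewer UMIs. Their counts of higher and lower genes, here and in the T cell clusters below, are therefore not like for like with the main counts.

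In the T cell clusters, 2 of 6 genes gave 543 cells (4.12%), 27 higher, 0 lower, and medians of 0.90 and 0.79 for antiviral effectors and GTPases. With 4 of 6 there were 61 cells (0.463%), 199 higher, 121 lower and medians of 2.15 and 1.63. The stricter hashtag rule gave 81 cells and 57 lower. Without cells holding other types' UMIs there were 42 cells, 417 higher, 191 lower and 1.87, with the direction asked in fewer hashtags. A floor of 50 CPM gave 49 higher and 3 lower, a floor of 1 UMI 193 and 903, and a prior of 5 UMIs 2 lower. Leaving out each hashtag gave 91 to 152 cells, 0.932 to 1.28%, 81 to 116 higher, 18 to 65 lower and 1.61 to 1.82.

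Among the named genes that were called over all 177 cells, directions turned for 9. Sign changes of named genes that were not called are not in this count. With 2 of 6 genes Hbb-bt was at 4.52, Hbb-bs at 4.34, Hba-a1 at 4.39 and Hba-a2 at 4.25. With the stricter hashtag rule Ly6c1 was at -0.086. Without cells holding other types' UMIs Cavin2 was at -0.95, Igkc at 0.15, Pparg at -1.60 and Cd200 at -0.54. In the T cell clusters 113 named genes under 19 settings gave 2147 values, of which 208 moved. The sign changed in 0 of the 855 values of genes at 2-fold or more and in 117 of the 1292 values of genes under 2-fold, Foxp3 (0.08) and Ifnar2 (0.12) as the median over hashtags 1, 5 and 6 among them. The cause of these changes was not tested. With 888059 UMIs in the 177 cells, genes near the floor rest on few UMIs. No paired analysis was possible because the hashtags carry no group and the series has 1 pooled expression library.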
